A study of Sus scrofa with 6 samples.

Results

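Mucins and secretory genes of the airways were followed in lung tissue of pigs after extended partial hepatectomy (ePHx). The list held 9 genes (MUC1, MUC4, MUC13, MUC16, MUC20, BPIFB1, BPIFA1, SCGB1A1 and PIGR) and its members were selected on their function together with their known signals in MSC-treated against control lungs, including the lower signals of MUC4 and MUC13. Of these, 7 were measured among the 11759 genes of the array that could be tied to a probe set, each by the brightest of its probe sets (highest mean over the arrays) and without any filter on low signals. No probe set could be tied by name to MUC16 or to SCGB1A1, and both genes were not analysed here. The animals were adult male German landrace pigs, all with ePHx of 70% of the liver, and lung tissue was taken 24 h after surgery. The control group (n = 3 arrays) received vehicle, Ringer solution, and the MSC-treated group (n = 3 arrays) received porcine bone marrow-derived mesenchymal stromal cells differentiated towards hepatocytes (pBM-MSC) through a central vein. Names of the arrays carry a different animal number each. Both groups thus carry the resection, and no lung without ePHx was on these arrays.

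Mucins are large glycoproteins whose sugar-rich stretches cover epithelial surfaces. MUC1, MUC4, MUC13, MUC16 and MUC20 are membrane-bound mucins that stay attached to the cell surface, and they differ in this from the gel-forming mucins MUC5AC and MUC5B, which goblet cells and glands release as mucus. BPIFA1 and BPIFB1 are proteins secreted by airway epithelium and glands that take part in mucosal defence, SCGB1A1 (uteroglobin) is the secretory protein of club cells, and PIGR, the polymeric immunoglobulin receptor, carries IgA across the epithelium into the lumen.

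Values are log2 signals after RMA, and a difference of 1 on this scale is a doubling of the linear signal. A pair of measured facts about the arrays touches all results. The first is background: 23 antigenomic probe sets, classed as background controls in the annotation of the array, gave signals between 1.29 and 8.13. Their median on the 6 arrays lay between 3.13 and 3.49, and their 95th percentile between 7.46 and 8.06. Between 18.6% and 28.2% of all genes lay above this 95th percentile on an array. A signal under it can still exceed most of the background probe sets. The second is a mark, the letters b-T, in the names of 3 arrays (control 1, control 3 and MSC-treated 2), of unknown meaning, which could be linked to these samples through identical signals in both deposited tables. The marked arrays had lower signals in intron control probe sets (medians 4.22 to 4.42) than the others (4.62 to 5.13). Their antigenomic 95th percentiles were lower too, with 7.46 to 7.73 against 7.98 to 8.06. The mark cuts across the groups, so differences of the members are also given from a fit that includes it as a covariate, and separately among the 3 marked and among the 3 other arrays. Precision is limited by the number of arrays.

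The 2 members past the thresholds of the study (unadjusted p under 0.05 and an absolute log2 difference of at least 0.5 in limma) were the membrane-bound mucins MUC4 and MUC13, both lower in MSC-treated lungs. Of all genes 1.86% passed these thresholds, 1.21% as lower and 0.655% as higher. With the mark as a covariate, the members past the thresholds were again 2, MUC4 and MUC13, against 2.88% of all genes in either direction and 1.22% as lower. As both genes were known to be lower when the list was drawn up, this count is a description. After Benjamini-Hochberg adjustment over all genes in limma no gene passed 0.05 (0 of 11759, 0%, with 323 at an unadjusted p under 0.05 in limma and 342 in the test of group means named in the methods), and the adjusted p was 0.99995 for each of the 7 members.

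MUC4, a membrane-bound mucin that also binds the receptor ERBB2, had log2 signals of 4.62, 4.60 and 5.66 on control arrays 1 to 3 and of 3.35, 4.49 and 3.71 on MSC-treated arrays 1 to 3. No MSC-treated array reached the level of a control array, but the distance between the lowest control and the highest MSC-treated array was only 0.12. The means were 4.96 ± 0.60 (SD, n = 3) in controls and 3.85 ± 0.58 (SD, n = 3) in MSC-treated animals, a log2 difference of -1.11 (SE 0.37, unadjusted p = 0.0186 in limma). The exact two-sided permutation test gave p = 0.1, the smallest value that 3 arrays against 3 allow. With the mark as a covariate the difference was -0.86 (SE 0.30), and it was -0.65 among marked and -1.07 among other arrays. MUC4 missed the thresholds when control 3 (-0.76), MSC-treated 1 (-0.86) or MSC-treated 3 (-1.04) was left out. In bulk tissue, fewer cells of a type and less RNA per cell cannot be told apart, here and for all genes that follow.

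MUC13, a membrane-bound mucin best known from gut epithelium (chr13:144997701-145020693, plus strand, Sscrofa10.2), had log2 signals of 5.13, 4.48 and 5.12 in controls and of 4.26, 4.24 and 4.18 in MSC-treated animals. The 3 treated arrays were close to each other, and controls 1 and 3, both marked, stood above control 2. The means were 4.91 ± 0.37 (SD, n = 3) and 4.23 ± 0.04 (SD, n = 3), with a log2 difference of -0.68 (SE 0.21, unadjusted p = 0.0119 in limma) and an exact permutation p = 0.1. The difference was -0.57 (SE 0.19) with the mark as a covariate, and it was -0.88 among marked and -0.26 among other arrays. MUC13 stayed past the thresholds without each single array, between -0.89 without control 2 and -0.57 without control 1. All treated arrays lay below all controls for 2 of the 7 members, MUC4 and MUC13, and for 3.83% of all genes (7.42% where groups that did not overlap in either direction are counted).

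The signals of MUC4, MUC13 and MUC20 did not exceed the 95th percentile of the antigenomic probe sets on any of the 6 arrays, and no linear fold change is given for them. MUC4 lay above the mean of the antigenomic probe sets on 4 arrays and above the median of the intron control probe sets on 3 arrays, and MUC13 lay above the former on 6 and above the latter on 2 arrays. The differences of MUC4 and MUC13 are therefore differences between signals within the range of background probe sets. With a minimum mean log2 signal of 5, a level below which 27.5% of all genes lay, both genes were left out and 0 of the 5 remaining members passed the thresholds.

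**Figure D1:**
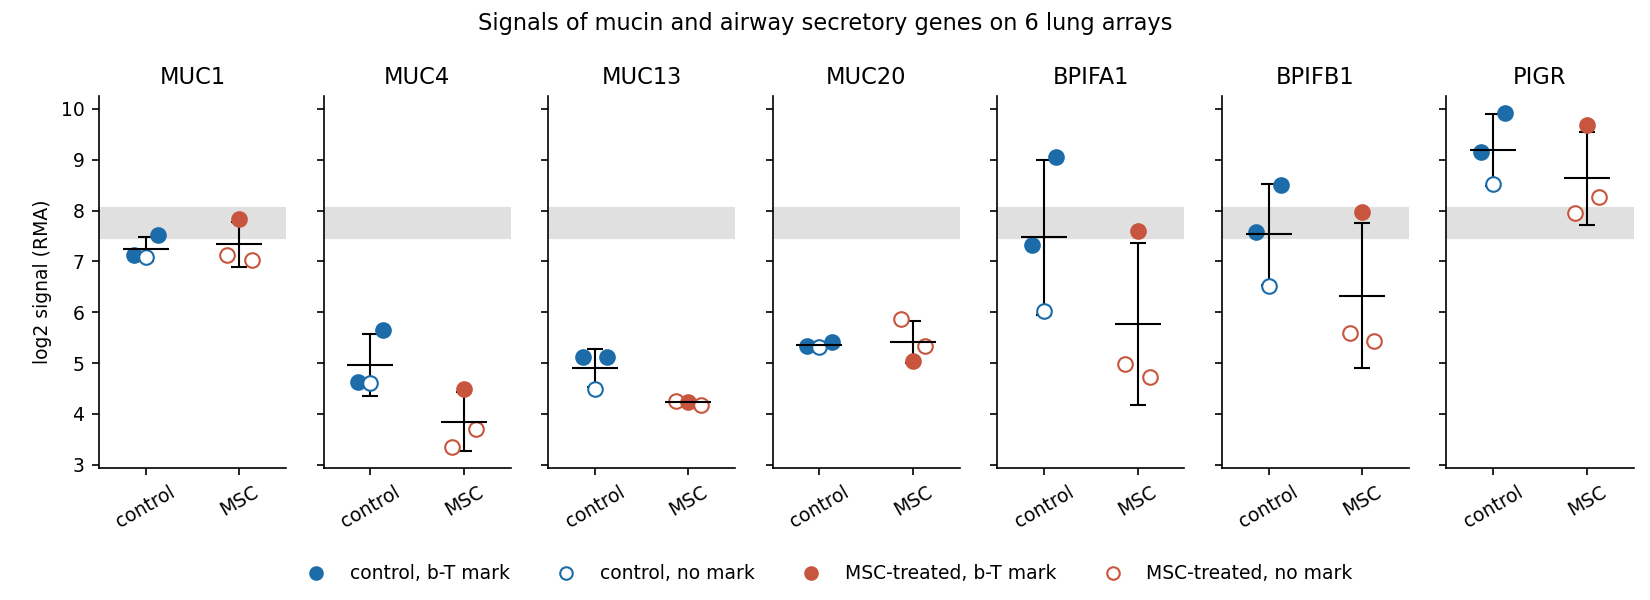
Log2 signal (vertical axes, RMA) of the 7 measured mucins and airway secretory genes on each array, with control and MSC-treated arrays apart on the horizontal axis, marked arrays as filled and other arrays as open symbols. Lines are group means, bars the SD, and the grey band the range of the antigenomic 95th percentile over the arrays (7.46 to 8.06). MUC4 and MUC13 are lower on all 3 MSC-treated arrays, whereas the signals of BPIFB1, BPIFA1 and PIGR on MSC-treated 2 lie among those of the controls.

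The other membrane-bound mucins, MUC1 and MUC20, did not pass the thresholds. MUC1, the widely expressed mucin of glandular and alveolar epithelium, had log2 signals of 7.13, 7.08 and 7.52 in controls and of 7.13, 7.84 and 7.03 in MSC-treated animals. The ranges overlapped, and the log2 difference was 0.09 (SE 0.25, exact permutation p = 0.9, n = 3 per group). It was 0.26 (SE 0.20) with the mark as a covariate, 0.52 among marked and -0.00057 among other arrays. MUC1 exceeded the antigenomic 95th percentile on 1 array, MSC-treated 2, and without this array the difference was -0.16. MUC20, a mucin that is located next to MUC4 with 0 protein-coding genes between them in the Sscrofa11.1 RefSeq annotation, had signals of 5.33, 5.31 and 5.42 in controls and of 5.86, 5.05 and 5.34 in MSC-treated animals. Controls lay within the range of the treated arrays, and the log2 difference of 0.06 (SE 0.22, exact permutation p = 0.8, n = 3 per group) turned to -0.02 with the mark as a covariate, with -0.33 among marked and 0.29 among other arrays. MUC13 lies further along the same chromosome, with 11 protein-coding genes between MUC20 and MUC13.

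**Figure D2:**
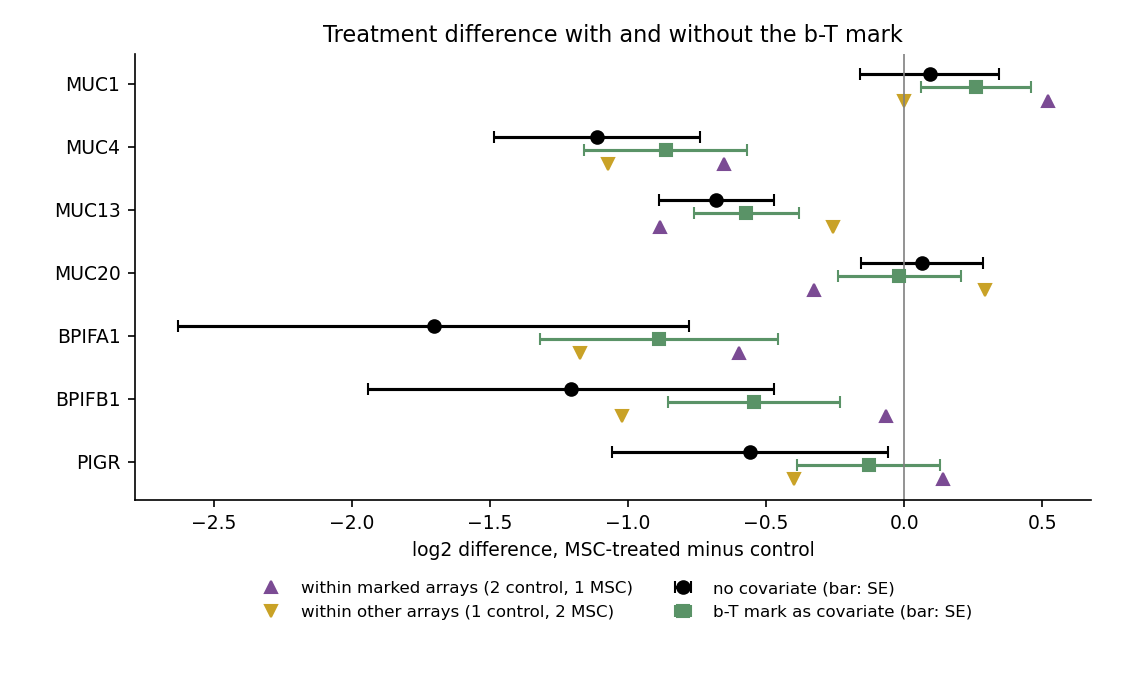
Log2 difference of MSC-treated minus control (horizontal axis) for each of the 7 members, from the fit with no covariate, from the fit that includes the mark, and among marked arrays (2 control, 1 MSC-treated) and other arrays (1 control, 2 MSC-treated) alone, with bars for the SE of both fits. MUC4, MUC13, BPIFA1 and BPIFB1 stay below 0 in all 4 comparisons, and the differences of these genes and of PIGR are closer to 0 with the mark as a covariate.

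The secreted proteins BPIFA1 and BPIFB1 had larger mean differences than MUC13, but of the 7 members they varied most between arrays, over ranges of 4.33 and 3.07. BPIFA1 (chr17:41704948-41711958, Sscrofa10.2), also called SPLUNC1, had log2 signals of 7.32, 6.03 and 9.06 in controls and of 4.99, 7.59 and 4.73 in MSC-treated animals. The groups overlapped, since MSC-treated 2 exceeded controls 1 and 2. The means of 7.47 ± 1.52 (SD, n = 3) and 5.77 ± 1.59 (SD, n = 3) gave a log2 difference of -1.70 (SE 0.92), which did not pass the thresholds (exact permutation p = 0.3). With the mark as a covariate it was -0.89 (SE 0.43, unadjusted p = 0.076 in limma), and it was -0.60 among marked and -1.18 among other arrays. BPIFA1 exceeded the antigenomic 95th percentile on 2 of 6 arrays, control 3 and MSC-treated 2.

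BPIFB1, also called LPLUNC1, is the neighbour of BPIFA1 on chromosome 17, with 0 protein-coding genes between them. Its signals were 7.57, 6.52 and 8.50 in controls and 5.58, 7.97 and 5.43 in MSC-treated animals. The order of the 6 arrays was the one of BPIFA1: control 3 was highest, then MSC-treated 2, control 1 and control 2, and MSC-treated 1 and 3 were lowest. The log2 difference was -1.21 (SE 0.74, exact permutation p = 0.3, n = 3 per group), with -0.54 (SE 0.31) under the mark as a covariate, -0.06 among marked and -1.02 among other arrays. A second probe set of BPIFB1, which lies at chr17:41732635-41760088 (Sscrofa10.2), gave the same order and a difference of -1.19. Its centred values were within 0.10 of those of the first on every array. BPIFB1 exceeded the antigenomic 95th percentile on 3 of 6 arrays, the marked ones, where this percentile was lower. Its low signals, like those of BPIFA1, lay in the range of background probe sets.

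PIGR (chr9:73959148-73980647, Sscrofa10.2) had log2 signals of 9.14, 8.51 and 9.92 in controls and of 7.96, 9.67 and 8.27 in MSC-treated animals, above the antigenomic 95th percentile on 5 of 6 arrays. MSC-treated 2 again lay among the controls, and MSC-treated 1 and 3 lay below all of them. The log2 difference was -0.56 (SE 0.50, exact permutation p = 0.4, n = 3 per group), -0.13 (SE 0.26) with the mark as a covariate, 0.14 among marked and -0.40 among other arrays. The second probe set of PIGR had a smaller difference of -0.14 (exact permutation p = 0.8, n = 3 per group), and its centred values departed from those of the first by up to 0.71. Part of the probes of both second probe sets can bind other transcripts according to the annotation of the array.

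BPIFA1 and BPIFB1 passed the thresholds when control 2 was left out (-2.42 and -1.71) and when MSC-treated 2 was left out (-2.62 and -2.03). PIGR passed them without MSC-treated 2 (-1.08). Without control 3, the array with the highest signals of all 3 genes, the differences were -0.91 for BPIFA1, -0.72 for BPIFB1 and -0.19 for PIGR. The call of these genes thus depended on single arrays, whereas the sign of their differences remained negative in all 6 fits.

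**Figure D3:**
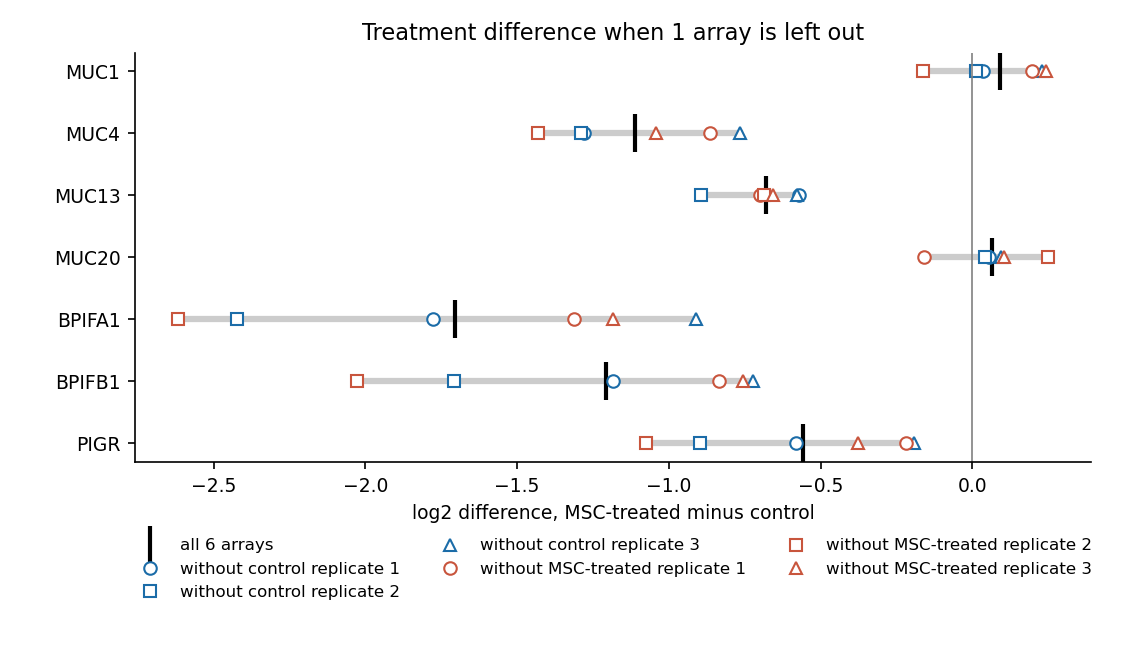
Log2 difference of MSC-treated minus control (horizontal axis) for each member with all arrays and after leaving out each of the 6 arrays in turn. The vertical bar is the value with all arrays and each symbol the value without 1 array. MUC13 stays between -0.89 and -0.57, while BPIFA1 ranges from -2.62 to -0.91.

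BPIFB1, BPIFA1 and PIGR had larger differences between marked and other arrays than between treatment groups, though the contrast of these effects was not tested. BPIFB1 was higher on marked than on other arrays by a log2 difference of 1.99 (SE 0.31, adjusted p = 0.0413 in limma with treatment as a covariate), with 1.51 among controls and 2.47 among MSC-treated arrays. It was the 1 member past an adjusted p of 0.05, as were 0.969% of all genes. BPIFA1 was higher by 2.45 (SE 0.43, adjusted p = 0.0516 in limma), with 2.16 among controls and 2.74 among MSC-treated arrays. PIGR was higher by 1.29 (SE 0.26, adjusted p = 0.0648 in limma), with 1.02 among controls and 1.56 among MSC-treated arrays. For all 3 genes the lowest marked array lay above the highest other array (7.57 against 6.52 for BPIFB1, 7.32 against 6.03 for BPIFA1 and 9.14 against 8.51 for PIGR), although this was lost in the second probe set of PIGR (8.79 against 8.81).

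Of the 7 members 5 were higher on the marked arrays at the same thresholds, namely MUC1, MUC4 and these 3 genes, compared with 8.56% of all genes (13.8% in either direction). MUC4 had a log2 difference of 0.75 (SE 0.30) and MUC1 of 0.50 (SE 0.20) between marked and other arrays, with adjusted p of 0.262 and 0.263 in limma. For MUC13 (0.33) and MUC20 (-0.24) the thresholds were not passed. Every marked array lay above every other array in 4 members, including MUC1 by a margin close to 0, and in 12.2% of all genes. Over the members the median difference by the mark was 0.75, against -0.01 over all genes. The median difference by treatment was -0.68, against -0.00 over all genes. With the mark as a covariate it was -0.54, against -0.01 over all genes. As the members were selected with their signals by treatment known, the medians by treatment are a description. The methods of the paper report a batch effect tied to sample processing in the lung arrays, corrected there with ComBat. They do not name the arrays of each batch. The sources do not say what the mark stands for or whether it is this batch, and its cause was not tested.

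**Figure D4:**
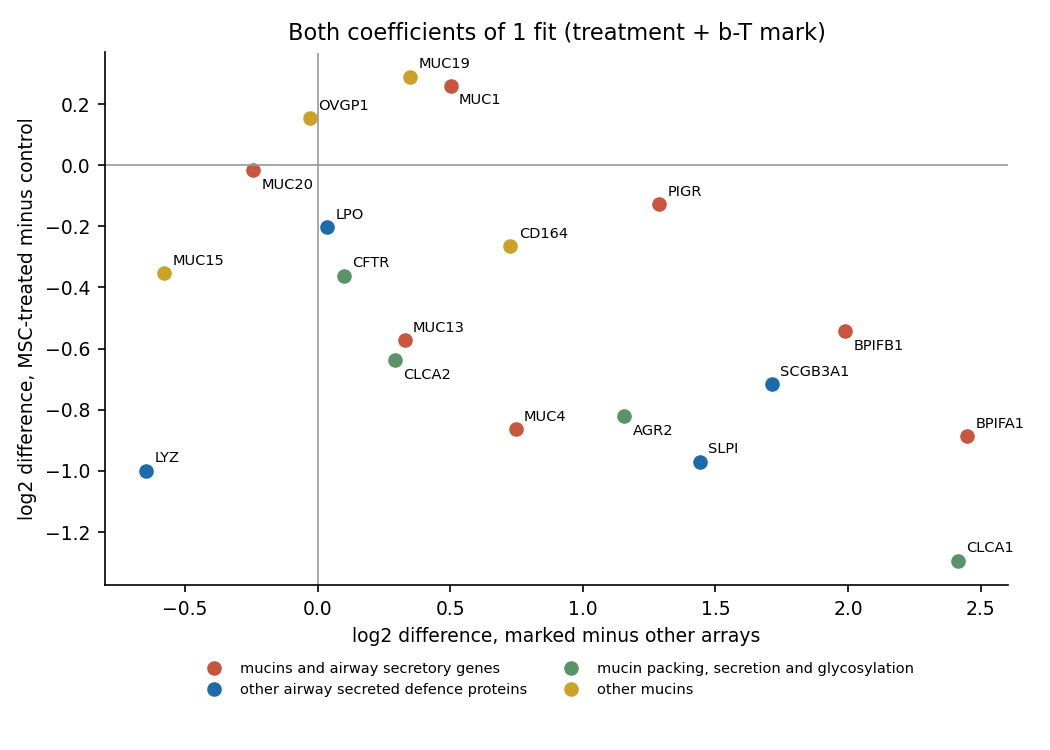
Log2 difference of marked minus other arrays (horizontal axis) against the log2 difference of MSC-treated minus control (vertical axis), both from the fit that holds both terms, for the 7 members and, for each of 3 further lists, the genes with the smallest p for treatment. BPIFA1, BPIFB1 and PIGR lie far to the right (2.45, 1.99 and 1.29), and MUC13 lies at 0.33.

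A probe set described as uteroglobin-like could not be tied to SCGB1A1 by an identifier (chr2:8570774-8575570, Sscrofa10.2). Its log2 signals were 10.97, 8.95 and 9.30 in controls and 9.65, 11.59 and 7.41 in MSC-treated animals. The controls lay within the range of the treated arrays, and the log2 difference was -0.19 (SE 0.99, exact permutation p = 1.0, n = 3 per group). It turned to 0.52 with the mark as a covariate (1.45 among marked and -0.42 among other arrays), and marked arrays were higher by 2.12 (SE 0.73, adjusted p = 0.2 in limma). The related secretoglobin SCGB3A1 had means of 9.87 ± 0.34 (SD, n = 3) and 8.59 ± 1.94 (SD, n = 3), a difference of -1.29 (SE 0.83) that was -0.72 with the mark as a covariate, 0.82 among marked and -2.25 among other arrays. The uteroglobin-like probe set and SCGB3A1 each lay above the antigenomic 95th percentile on 5 of 6 arrays and under it on MSC-treated 3.

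Other genes of the mucus and of airway defence were read from lists. Of 7 measured other mucins, none passed the thresholds for treatment, and their median log2 difference was -0.08. MUC5AC and MUC5B were not tied to a probe set by name. Among 8 measured further secreted defence proteins 1 was lower, the protease inhibitor SLPI (-1.45, SE 0.55), with 11.27 ± 1.07 in controls and 9.82 ± 0.70 in MSC-treated animals (SD, n = 3). SLPI missed the thresholds without control 1 or 3 or MSC-treated 1 or 3, and its differences ran from -2.02 to -0.95 over all 6 fits without 1 array. It was higher on marked arrays by 1.44, and in the fit that includes the mark it was lower by treatment (-0.97) together with LYZ, the antibacterial enzyme lysozyme (-0.78 without the mark, -0.84 among marked and -1.16 among other arrays), so that 2 of these 8 genes then passed.

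Among 27 measured genes of mucin packing, secretion and glycosylation 2 were lower and 25 did not pass, while 25 of the 27 differences were negative, as were 50.5% over all genes. The median was -0.20. The lower genes were AGR2 (-1.21, SE 0.45), a disulfide isomerase needed for folding of mucins in the endoplasmic reticulum, and CLCA2 (-0.74, SE 0.20), a membrane protein of the family named chloride channel accessory. AGR2 missed the thresholds when any of the same 4 arrays was left out (-1.67 to -0.87 over all 6 such fits), and CLCA2 stayed past them in 6 of 6 (-0.92 to -0.60). In the fit that includes the mark both stayed past them, AGR2 at -0.82 and CLCA2 at -0.64. The signals of both genes lay within the range of background probe sets on every array, as for MUC4 and MUC13. CLCA1, a secreted goblet cell protein, had 9.63 ± 0.90 and 7.53 ± 2.15 (SD, n = 3), a difference of -2.10 (SE 0.98) that did not pass and that was -1.29 with the mark as a covariate, 0.01 among marked and -2.59 among other arrays. The signals of CLCA1 on MSC-treated 1 (6.15) and MSC-treated 3 (6.44) lay under the antigenomic 95th percentile, 7.98 on both arrays.

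Of 20 measured inducers of mucin genes 1 was lower, the EGF receptor ligand BTC (-0.94, SE 0.17), at 8.78 ± 0.12 against 7.83 ± 0.19 (SD, n = 3), and it stayed past the thresholds without each single array. BTC differed by 0.06 between marked and other arrays. On MSC-treated 1 (7.93) and MSC-treated 3 (7.61) the signals of BTC lay under the antigenomic 95th percentile, 7.98 on both arrays. In the fit that includes the mark BTC was again lower (-0.92), and the cytokine TNF passed as higher (0.73, and 0.37 without the mark). Of 9 measured genes of IgA transport and mucosal antibody, including cytokines that act on PIGR, 1 was lower, IL6 (-0.78), which missed the thresholds without control 1 (-0.92 to -0.56 over all 6 fits without 1 array) and stayed past them in the fit that includes the mark (-0.70). The median of this list was -0.18, and -0.04 with the mark as a covariate. The signals of IL6 lay within the range of background probe sets on every array.

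The profiles most like MUC13 over the 6 arrays, by the root mean square difference of log2 signals centred on each gene's mean, were those of CLCA2 (0.0925), SBSPON (0.0941) and AMBN (0.117). For MUC4 they were LRRC18 (0.197), a gene the array names E4 (0.244) and AGR2 (0.267). MUC4 and MUC13 differed from each other by 0.502, and MUC4 from PIGR by 0.385, so that MUC4 was nearer to PIGR than to MUC13 by this measure. These genes were picked out of all genes for their likeness and share the 6 arrays, so the values are a description.

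Some lists of cell type markers held genes past the thresholds for the mark or for treatment, and other lists held none for treatment. The mean signal of 7 measured club and goblet cell markers, among them BPIFA1, BPIFB1, AGR2 and CLCA1, was 7.30 to 8.12 on marked and 5.62 to 6.89 on other arrays, and 5 of the 7 were higher on marked arrays at the thresholds. By treatment these 7 had a median log2 difference of -1.21, or -0.72 with the mark as a covariate, and 1 of them, AGR2, passed. Their defining genes MUC5AC, MUC5B, SCGB1A1 and SCGB3A2 were not measured by name. BPIFA1 and BPIFB1 are members as well, so this marker list partly repeats their values. Of 5 measured general epithelial markers 3 were lower on marked arrays (mean signal 8.11 to 8.33 against 8.41 to 9.16), opposite to the secretory genes. By treatment 0 of the 5 passed, and 2 passed as lower in the fit that includes the mark, the keratins KRT8 (-0.51) and KRT18 (-0.57).

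Ciliated cell markers lay at 6.58 to 6.88 in controls and 6.43 to 6.63 in MSC-treated animals, with TEKT2 lower among 9 measured (-0.51, and -0.58 to -0.38 without single arrays, past the thresholds in 3 of these 6 fits). Of 3 measured basal cell markers the keratin KRT5 was lower (-0.94, SE 0.26), and it stayed past the thresholds without each single array and with the mark as a covariate (-0.83). The signals of KRT5 and TEKT2 lay within the range of background probe sets on every array, the limit already given for MUC4 and MUC13. The other basal markers did not pass, with 0.20 for DAPL1 and -0.15 for KRT15, and the median of the 3 was -0.15 (-0.02 with the mark as a covariate). Alveolar type 2 markers lay at 10.11 to 10.52 in controls and 9.84 to 10.41 in treated animals, with 0 of 7 past the thresholds, so that surfactant genes of the labelled tissue, lung, were present on all arrays. Of 8 measured alveolar type 1 markers none passed for treatment, and 6 of the differences were positive (median 0.15). None of 4 measured plasma cell markers passed for treatment. Neutrophil markers had lower mean signals on MSC-treated arrays: 8 of 8 measured had negative differences (median -0.64). On controls 1 to 3 the mean signals of these 8 markers were 9.30, 8.08 and 7.74. On MSC-treated 1 to 3 they were 7.71, 7.38 and 7.59. Control 1 thus stood well above all other arrays, and control 3 was close to MSC-treated 1. Of these markers, S100A12 and TCN1 passed the thresholds as lower. The signals of TCN1 lay within the range of background probe sets on every array, and those of S100A12 lay above it. The haemoglobin chain HBB was lower as well (-1.26). HBB lay under the antigenomic 95th percentile on control 2 (7.91 against 8.06), MSC-treated 1 (6.48 against 7.98) and MSC-treated 3 (7.96 against 7.98). Over the 6 fits without 1 array TCN1 (-2.02, range -2.66 to -1.26) missed the thresholds once, without MSC-treated 3, and S100A12 (-0.99, range -1.23 to -0.58) without MSC-treated 2 or 3. HBB (range -1.65 to -0.79) missed them without control 1, control 3 or MSC-treated 1 and in the fit that includes the mark (-0.96). The part of any of these cell types in the values of the mucins and secretory genes was not tested.

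**Figure D5:**
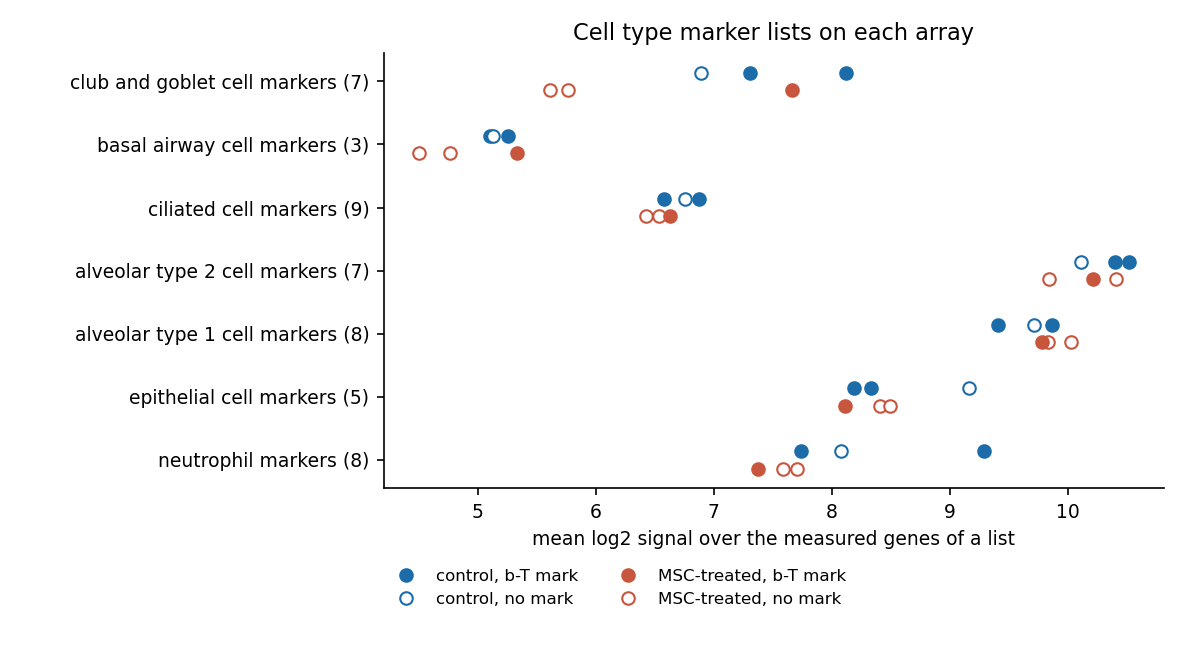
Mean log2 signal (horizontal axis, RMA) over the measured genes (their number in brackets) of 7 cell type marker lists on each of the 6 arrays, control arrays in blue and MSC-treated in red, marked arrays filled. Club and goblet cell markers are at 7.30 to 8.12 on the 3 marked arrays and at 5.62 to 6.89 on the others, and neutrophil markers are at 7.38 to 7.71 on MSC-treated and 7.74 to 9.30 on control arrays.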

How the data were processed

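The authors deposited log2 signals of the 6 lung arrays, summarized by RMA (the submitters' notes name Affymetrix Expression Console 1.4). The ComBat correction and Brainarray annotation of the methods are not part of them. Of 19124 main probe sets 12910 were tied to 1 gene, and each of 11759 genes was read from its brightest probe set. A second table held the same values in 6 columns not matched to samples by name. These columns were used only to compare the tables and to read the mark in array names. Groups were compared with limma 3.58.1 in R 4.3.3 (Benjamini-Hochberg over all genes) and by exact permutation, and the fit was tested on simulated data. The methods name 3 different animals per group.

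Members and lists were chosen with earlier results of these data known. Named are all measured members, list genes past the thresholds or up to 4 with the smallest p, and the 3 profiles most like MUC4 and MUC13. The uteroglobin-like probe set was named after its values were seen. The second probe sets of BPIFB1 and PIGR and the antigenomic median were added after seeing the data. Other settings were further scalings, a minimum signal, the mean of probe sets, trended variance, array weights, the mark, the t-test of the methods, a block for replicate numbers, and each array left out in turn. Liver arrays were not analysed here. The erythroid marker list is not reported here as a whole.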

Additional observations from a re-analysis of the deposited data

How the results depend on the processing

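Of the 7 members, 2 passed the thresholds with all arrays and 0 at a minimum mean log2 of 5 (MUC4 and MUC13 were left out by this filter). None passed in the t-test of the methods, which asks for p under 0.05 and a fold change above 2. MUC4 (-1.11), BPIFA1 (-1.70) and BPIFB1 (-1.21) were past this fold change and missed the p threshold of the t-test. Between 1 and 5 members passed when single arrays were left out. The number of all genes past the thresholds, 219, became 339 with the mark as a covariate, 424 with the mark removed first, 2 in the t-test of the methods, and 182 to 608 without single arrays. MUC20 changed sign with array weights (-0.000423), the mark fitted as a covariate or removed beforehand (-0.0169 each), within the marked arrays (-0.33) and without MSC-treated 1 (range without single arrays -0.16 to 0.25). MUC1 changed sign within the other arrays (-0.00057) and without MSC-treated 2 (range -0.16 to 0.24), and PIGR within the marked arrays (0.14). The cause was not tested. The members lay above the antigenomic 95th percentile in 11 of 42 pairs of member and array, above the 75th percentile in 18 and above the median, a reference chosen after seeing the data, in 42.

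With the replicate number as a block, 166 genes and 2 members passed. Samples that share a number did not deviate together (correlations of -0.41, -0.49 and 0.06). Each number joins a marked array with an unmarked one, and the mark was not removed before these correlations. They therefore cannot show whether the numbers pair the animals.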
